A study of Mus musculus with 6 samples.

Results

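The genes described here encode the giant protein titin (Ttn), its splicing regulator Rbm20, the thick-filament protein cardiac myosin-binding protein C (Mybpc3), the M-band proteins myomesin (Myom1, Myom2 and Myom3) and the cytoskeletal adaptor Obsl1, and the Z-disc protein nebulette (Nebl). They were chosen by gene symbol, and all 8 were found among the 26881 genes of the expression table. Expression was measured by RNA-seq in 3 heart libraries labelled wild type (WT) and 3 labelled Cxxc1 null, called Cfp1-cKO below, all from mice 2 weeks old. The Cfp1-cKO mice carried Myh6-Cre, a recombinase driven by a cardiomyocyte promoter, in a Cfp1 flox/flox background (gene symbol Cxxc1), whereas the labels give the WT mice no allele or transgene. Cfp1 is a protein that binds unmethylated CpG dinucleotides and recruits a histone H3K4 methyltransferase complex. The sources used here do not say whether a library came from 1 heart or from pooled hearts, nor which genotype served as WT. The p-values below therefore measure only the spread between these libraries, which may be partly technical.

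In striated muscle, a single titin molecule spans from the Z-disc to the M-band at the centre of the sarcomere, and it acts as a spring and as a template for the thick filament. Rbm20 removes spring exons from titin transcripts and thereby shifts the heart from long compliant titin to short stiff titin after birth. Myomesins and Obsl1 link titin and myosin at the M-band, myosin-binding protein C sits on the thick filament and restrains the myosin heads, and nebulette is the cardiac relative of skeletal nebulin that ties actin filaments into the Z-disc. Because the table holds 1 value per gene, none of the titin or nebulette isoforms was measured separately.

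The libraries held 16672652 to 22700811 fragments as recovered from the table, and the 8 genes took 0.516% to 0.862% of them. The deleted gene itself, Cxxc1, was at 9.66, 12.9 and 10.03 FPKM (fragments scaled to exon length and to the fragments of the library) in the WT libraries against 8.02, 9.94 and 8.74 FPKM in Cfp1-cKO, so the groups overlapped (log2 fold change -0.26, adjusted p = 0.249). Markers of lung epithelium stood apart: 12 of 12 were called higher in Cfp1-cKO, and their summed level was 3339 to 5064 FPKM in Cfp1-cKO against 0.0166 to 2.04 FPKM in WT, where Nkx2-1, Lamp3 and Cldn18 were at 0 in every library. Of 12 cardiomyocyte markers, 6 were called lower and 0 higher (limma and voom alike, and 0 at an unadjusted p below 0.05), with a summed level of 13021 to 15979 FPKM in Cfp1-cKO against 22968 to 26628 FPKM in WT. Of the other marker lists, 1 of 4 tested genes of smooth muscle, 1 of 5 of fibroblasts and 1 of 4 of endothelium were called higher. These limma shares were near the 21.1% of all tested genes called higher, while 1.68% were called lower. By voom, 1 gene of smooth muscle, 3 of fibroblasts and 2 of endothelium were called higher, where voom called 2573 genes higher in all. The numbers higher by limma at an unadjusted p below 0.05 were the same 1, 3 and 2. Of 8 atrial genes, 1 was higher and 3 were lower, and none of 3 ventricular genes passed. After rescaling by the median of ratios (below), 0 genes of smooth muscle, fibroblasts or endothelium were called higher. In that fit 0 atrial genes were higher and 3 lower, and 1 ventricular gene was lower. The part of the lung, cardiomyocyte and other marker differences in the results below was not tested. In whole hearts, fewer cells of a type and less RNA per cell cannot be told apart.

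A gene was tested with limma on log2(FPKM + 1) if its mean was at least 1 FPKM, which 11017 genes reached, and called at an adjusted p below 0.05 with a log2 fold change beyond 0.5 in size. Of the 8 genes, 7 were tested. Nebl was the only one called, lower in Cfp1-cKO, and 0 were called higher, by limma as by voom on recovered fragments. At an unadjusted p below 0.05, 0 were higher and 2, Nebl and Myom1, were lower. Among all tested genes, 21.1% were called higher and 1.68% lower. The median log2 fold change of the 7 was -0.10, beside 0.35 over all tested genes. When libraries were rescaled by the median of ratios, so that the median over all tested genes was 0.00, Myom1 joined Nebl as lower and 0 were higher, against 3.25% of all genes lower and 3.74% higher.

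Nebl (chr2:17343909-17731464, minus strand; coordinates here and below are GRCm38 as in the deposited table, 1-based) had the largest change of the 7 tested genes in size. RefSeq (GRCm38.p6) gives it 4 starts, whose windows of 300 bases (250 before the start, 50 after) held 32, 5, 1 and 1 CG dinucleotides, in order along the gene. To show starts that RefSeq annotates, the 250 bases upstream of the first and the last of these are given. These starts lie nearest to protein-coding GENCODE transcripts, but neither coincides with a GENCODE start. Whether transcripts begin at them in these hearts was not tested. The starts shown were chosen with their CG counts known, and Cfp1 recognises CpG. CG dinucleotides are in capitals. The upstream start, at 17731134, lies 91 bases from GENCODE transcript Nebl-201, which has 7 exons and 270 codons, and the bases upstream of it lie in an exon of Nebl-205, a transcript without coding sequence. The inner start, at 17462856, lies 67 bases from Nebl-207, which has 14 exons and 452 codons, while Nebl-202 with 28 exons starts further inside, at 17460932.
Nebl upstream start, chr2:17731135-17731384: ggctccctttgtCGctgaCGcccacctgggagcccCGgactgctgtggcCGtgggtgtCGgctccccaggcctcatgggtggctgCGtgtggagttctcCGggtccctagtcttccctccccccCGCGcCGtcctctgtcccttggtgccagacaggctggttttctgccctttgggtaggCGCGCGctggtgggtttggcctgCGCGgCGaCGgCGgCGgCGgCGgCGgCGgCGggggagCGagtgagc
Nebl inner start, chr2:17462857-17463106: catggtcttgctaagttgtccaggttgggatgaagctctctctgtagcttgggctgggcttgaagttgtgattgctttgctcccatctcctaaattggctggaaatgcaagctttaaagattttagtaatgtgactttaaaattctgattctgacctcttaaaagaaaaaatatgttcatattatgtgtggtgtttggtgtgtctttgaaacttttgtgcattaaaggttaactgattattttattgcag
The count of 32 around the upstream start was reached by 9.52% of the 32851 RefSeq promoter windows of that length. The count of 1 at the inner start was reached by 94.6%, and this CG was not in the 250 bases shown. A CG reads as CG on both strands, so each was counted once. Neither Cfp1 binding nor H3K4me3 is part of these files, and the FPKM of the gene does not separate transcripts from the starts.

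The level of Nebl was 35.2, 29.6 and 42.7 FPKM in WT libraries against 10.6, 13.2 and 17.9 FPKM in Cfp1-cKO. Every Cfp1-cKO library was below every WT library, as was so for 3.23% of tested genes. The means were 35.9 ± 6.59 and 13.9 ± 3.71 FPKM (SD, n = 3), a 2.58-fold lower level in Cfp1-cKO. On the log2(FPKM + 1) scale the change was -1.32 (SE 0.22, 95% interval -1.82 to -0.82, adjusted p = 0.00843). Only 0.363% of tested genes had a lower log2 fold change. The call rested on 8503 to 12183 fragments in WT and 3142 to 4916 in Cfp1-cKO, and it held without any one library, with changes from -1.51 to -1.15. Of the 12 cardiomyocyte markers, 11 had a log2 fold change below 0 and 6 were called lower. Scaled to the geometric mean of these 12, the change of Nebl was -0.49 (adjusted p = 0.0676) and was not called.

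An antisense gene inside the Nebl locus, Gm13324 (chr2:17559060-17559998, plus strand), was looked at after its values were seen. It overlaps no Nebl exon. It was at 0.0774, 0.0932 and 0.195 FPKM in the WT libraries against 6.13, 3.27 and 3.71 FPKM in Cfp1-cKO. These correspond to 1, 1 and 2 fragments against 68, 31 and 38. The log2 fold change was 2.22 (SE 0.22, adjusted p = 7.44e-04), opposite in direction to Nebl. The counting is not stated to use strand, so fragments from an intron of Nebl could enter this value.

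The relatives of Nebl changed in both directions. In a list of 9 genes of the nebulin family and of thin-filament length control, 8 were tested. Of these, 2 were called higher and 1 lower, beside 21.1% and 1.68% of all tested genes. The median log2 fold change was 0.26, beside 0.35 over all tested genes. Lasp1, a small actin-binding relative of nebulette, rose from 3.55 ± 0.735 to 9.41 ± 2.36 FPKM (log2 fold change 1.18, adjusted p = 0.00985). Xirp2, an actin-binding repeat protein of the intercalated disc, rose from 8.72 ± 3.74 to 38.2 ± 29.0 FPKM (log2 fold change 1.84, adjusted p = 0.029). Tmod4, a tropomodulin that caps actin filaments, fell from 1.57 ± 0.539 to 0.564 ± 0.166 FPKM (log2 fold change -0.70, adjusted p = 0.0382). Neb, the skeletal nebulin gene, was at 0.0663, 0.104 and 0.186 FPKM in the WT libraries against 0.319, 0.469 and 0.629 FPKM in Cfp1-cKO, below the filter in all 6. With the median of ratios, Xirp2 was no longer called. The call of Tmod4 was lost without WT replicate 1, Cfp1-cKO replicate 2 or Cfp1-cKO replicate 3, and 1 in place of 2 genes was called higher without WT replicate 1, WT replicate 2 or Cfp1-cKO replicate 3.

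**Figure D1:**
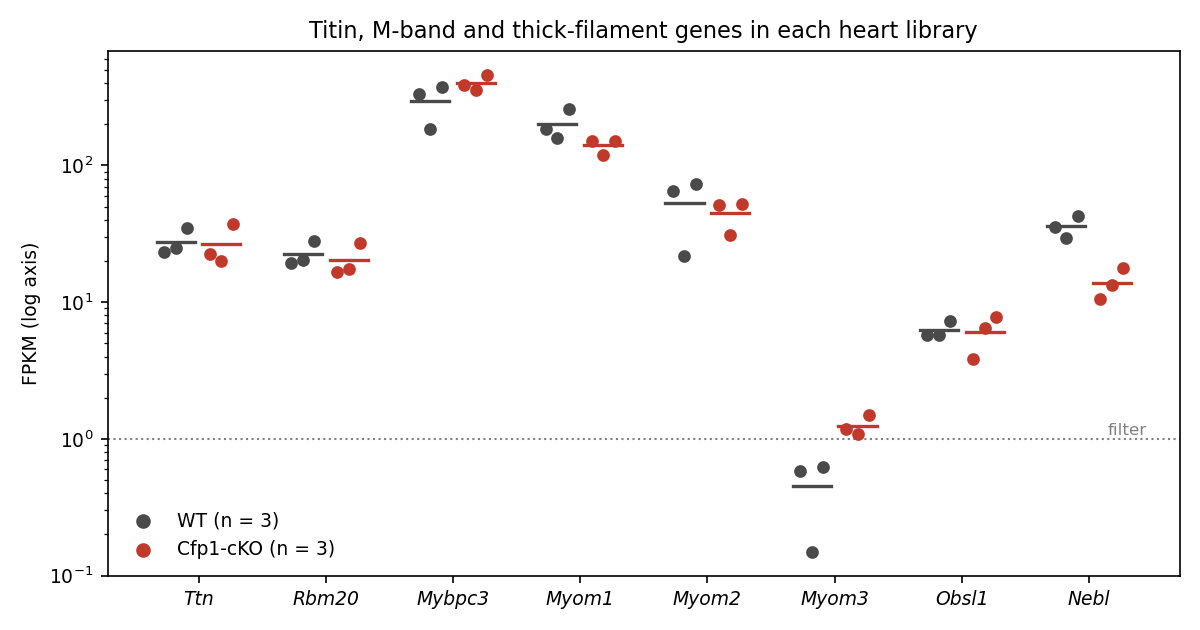
FPKM of the 8 genes in each library on a log axis, with WT in grey, Cfp1-cKO in red, each point 1 library, and bars at the group means (n = 3). The groups separate for Nebl (10.6 to 17.9 in Cfp1-cKO against 29.6 to 42.7 in WT), Myom1 and Myom3, and overlap for the other 5; the dotted line marks the filter at 1 FPKM.

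Titin transcripts did not pass the test. Ttn (chr2:76703980-76982547, minus strand) had 116825 bases of exon in 345 exonic blocks, so that 39257 to 78003 fragments lay behind its values. It was at 23.4, 24.7 and 34.6 FPKM in the WT libraries against 22.4, 20.2 and 37.1 FPKM in Cfp1-cKO. The highest library of each group was replicate 3, and the groups overlapped almost entirely. The log2 fold change was -0.08 (SE 0.25, 95% interval -0.66 to 0.49, adjusted p = 0.815), so a change of up to 0.66 downward or 0.49 upward lay within the interval. The sign of this small difference turned positive without WT replicate 3, Cfp1-cKO replicate 1 or Cfp1-cKO replicate 2. An antisense transcript, Gm13938, shares 453 bases of exon with Ttn.

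Rbm20 (chr19:53677306-53867080, plus strand) followed Ttn closely from library to library. Its level was 19.4, 20.4 and 28.1 FPKM in WT libraries against 16.7, 17.4 and 27.1 FPKM in Cfp1-cKO (log2 fold change -0.16, SE 0.23, 95% interval -0.67 to 0.36, adjusted p = 0.598). Here too replicate 3 was highest in each group, and the groups overlapped. The ratio of Rbm20 to Ttn within a library was 0.831, 0.824 and 0.813 in WT and 0.746, 0.862 and 0.730 in Cfp1-cKO. In WT it varied by only 0.02 on the log2 scale (SD, n = 3), against 0.13 in Cfp1-cKO. The difference of the log2 ratio was -0.08 (exact permutation test, two-sided, p = 0.40). With 3 against 3 libraries this exact test cannot go below p = 0.10, and over the 5 ratios tested the Benjamini-Hochberg adjusted value was 0.667. As a description over 6 libraries that share these 2 groups, Pearson's r of log2(FPKM + 1) between Rbm20 and Ttn was 0.97, the highest among all pairs of the 8 genes.

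Transcripts that Rbm20 is known to splice were examined at the level of the whole gene, which does not show splicing. Of 20 such genes, all tested, 3 were called higher and 4 lower, with a median log2 fold change of -0.05. Over all tested genes, 21.1% were called higher and 1.68% lower, with a median of 0.35. Tpm1, the main cardiac tropomyosin, fell from 1424 ± 224 to 623 ± 88.8 FPKM (log2 fold change -1.19, adjusted p = 0.00668). Nexn, the Z-disc protein nexilin, fell from 166 ± 10.4 to 77.9 ± 9.54 FPKM (log2 fold change -1.09, adjusted p = 0.00473). Ryr2, the calcium release channel of the sarcoplasmic reticulum, fell from 40.5 ± 6.09 to 19.6 ± 6.82 FPKM (log2 fold change -1.04, adjusted p = 0.0214). Pdlim3, an actinin-binding Z-disc protein, rose from 4.46 ± 1.21 to 11.0 ± 1.67 FPKM (log2 fold change 1.16, adjusted p = 0.01). With the median of ratios 1 was called higher and 6 lower. The number called higher was 1 without WT replicate 1, Cfp1-cKO replicate 2 or Cfp1-cKO replicate 3, and the number called lower was 2 without Cfp1-cKO replicate 1 or Cfp1-cKO replicate 2.

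Among 14 splicing regulators of striated muscle, all tested, limma called 0 higher, beside 21.1% of all tested genes. By voom 1 was called higher, and by limma 3 were higher at an unadjusted p below 0.05. Only 1 was called lower, beside 1.68% of all tested genes. This was Rbfox1, a neuronal and muscle splicing factor, which was at 12.9, 18.8 and 10.1 FPKM in the WT libraries against 2.34, 3.25 and 4.63 FPKM in Cfp1-cKO, with no overlap (log2 fold change -1.75, SE 0.26, adjusted p = 0.00565). The others, among them Rbm24, Mbnl1, Celf1 and Ptbp1, had log2 fold changes between -0.24 and 0.55.

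None of the tested thick-filament and M-band members passed on the deposited scale. Mybpc3 (chr2:91118144-91136516), at a mean of 349 FPKM the most abundant of the 8 per length, was at 332, 185 and 376 FPKM in the WT libraries against 385, 355 and 462 FPKM in Cfp1-cKO. WT replicate 2 was the lowest library by far, and the Cfp1-cKO library with the lowest level lay below the highest WT library. The means were 298 ± 100.2 and 401 ± 55.1 FPKM (log2 fold change 0.48, SE 0.27, adjusted p = 0.187), and without WT replicate 2 the change was 0.17. Judged by Xist, WT replicate 2 and Cfp1-cKO replicates 1 and 2 were taken as female. Those Cfp1-cKO libraries also held the Y-chromosome transcript Ddx3y at 0.938 and 0.658 FPKM, against 0 in WT replicate 2, so this coding is uncertain. With sex as a covariate Mybpc3 was called higher in Cfp1-cKO (log2 fold change 0.69, adjusted p = 0.0303), the only such call among the 8 in that fit. The ratio of Mybpc3 to Ttn was 14.2, 7.46 and 10.9 in WT and 17.2, 17.6 and 12.5 in Cfp1-cKO, which overlapped (log2 difference 0.57, exact permutation p = 0.20, adjusted 0.50).

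Myom1 (chr17:71019521-71126856), the myomesin found in all striated muscle, was at 186, 158 and 257 FPKM in the WT libraries against 151, 119 and 151 FPKM in Cfp1-cKO. Every Cfp1-cKO library was below every WT library, though the gap between 151 and 158 was narrow. The means were 200.1 ± 51.1 and 140.3 ± 18.9 FPKM (log2 fold change -0.49, SE 0.21, 95% interval -0.97 to -0.01, adjusted p = 0.109), so Myom1 did not pass. With the median of ratios it was called lower (log2 fold change -0.93, adjusted p = 0.0452), whereas scaled to the cardiomyocyte markers its change was 0.37 (adjusted p = 0.142). The FPKM of Myom1 gave whole fragments with an exon length of 5672 bases, which is shorter than the 10459 bases of GENCODE M21.

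Myom2 (chr8:15057653-15133541), the myomesin of fast and adult cardiac muscle, was the most variable of the abundant members. It was at 65.2, 21.8 and 72.8 FPKM in the WT libraries against 51.6, 31.2 and 52.2 FPKM in Cfp1-cKO. The highest WT library was 3.35 times the lowest, and the lowest library of each group was replicate 2. The log2 fold change was -0.10 (SE 0.43, 95% interval -1.08 to 0.88, adjusted p = 0.864), and it was -0.64 without WT replicate 2 (adjusted p = 0.094) and turned positive without WT replicate 1, WT replicate 3 or Cfp1-cKO replicate 2. The ratio of Myom2 to Myom1 was 0.350, 0.138 and 0.284 in WT and 0.341, 0.263 and 0.346 in Cfp1-cKO (log2 difference 0.39, exact permutation p = 0.70, adjusted 0.875).

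Myom3 (chr4:135759715-135815564), a myomesin of skeletal muscle, was scarce but showed an ordered difference. It was at 0.584, 0.149 and 0.625 FPKM in the WT libraries against 1.17, 1.09 and 1.49 FPKM in Cfp1-cKO, on 80, 17 and 68 against 138, 110 and 162 fragments. All Cfp1-cKO libraries were above all WT libraries, as was so for 46.4% of tested genes. The means were 0.453 ± 0.264 and 1.25 ± 0.210 FPKM, 2.76-fold higher in Cfp1-cKO. Its overall mean of 0.852 FPKM fell below the filter, so it had no value in the main test. Without a filter, limma gave a log2 fold change of 0.65 (SE 0.19, adjusted p = 0.0814), a scale that understates changes near 1 FPKM. With voom on recovered fragments, an alternative chosen after seeing the data, it was 1.68 (SE 0.48, adjusted p = 0.0321) and was called higher. That fit took genes with 10 or more fragments on average and called 3758 of them higher, so such a call was common in it. The number of genes it tested is not given here.
The region upstream of the Myom3 start (GRCm38.p6, plus strand), shown because Myom3 was the only one of the 8 genes higher in every Cfp1-cKO library than in every WT library, held 4 CG dinucleotides, in capitals, and its window of 300 bases held 6, a count reached by 56.4% of promoter windows.
Myom3, chr4:135759465-135759714: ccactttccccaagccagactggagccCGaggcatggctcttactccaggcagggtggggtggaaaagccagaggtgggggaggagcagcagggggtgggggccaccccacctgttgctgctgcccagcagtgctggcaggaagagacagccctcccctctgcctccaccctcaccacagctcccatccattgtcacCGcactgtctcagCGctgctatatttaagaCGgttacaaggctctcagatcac

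Within libraries, the ratio of Myom3 to Myom1 was 0.00314, 9.48e-04 and 0.00244 in WT and 0.00775, 0.00922 and 0.00987 in Cfp1-cKO. All Cfp1-cKO ratios were above all WT ratios, and the log2 difference was 2.201, a 4.599-fold higher ratio (exact permutation p = 0.10, the smallest this design allows, adjusted 0.50). Because both genes come from the same library, this ratio does not depend on the scaling between libraries, and without any one library the log2 difference stayed between 1.69 and 2.55. With 1 FPKM added to both genes it was 1.13. Of 14 markers of skeletal muscle, 12 were in the table, with a summed level of 3.59 to 5.97 FPKM in WT and 19.8 to 22.9 FPKM in Cfp1-cKO. Most of the latter was Casq1, at 12.8 to 16.7 FPKM, which with Tnni2 was called higher, these 2 being the skeletal markers that reached the test. The WT libraries gave Tnni2 at 1.76 ± 0.262 FPKM against 3.17 ± 0.280 FPKM (SD, n = 3) in the Cfp1-cKO libraries. Tnnt3, below the filter and not tested, ranged from 0.20 to 0.28 FPKM in the former and from 0.68 to 2.16 FPKM in the latter. The skeletal myosin genes Myh1, Myh2 and Myh3 were at 0 in all WT libraries and reached at most 0.0175 FPKM in Cfp1-cKO. Another, Myh8, was at 0.00374, 0 and 0.0142 FPKM in WT against 0.0785, 0.209 and 0.0613 FPKM in Cfp1-cKO. For Mylpf (0.314 to 0.949 FPKM in WT, 0.791 to 1.26 FPKM in Cfp1-cKO), Atp2a1, Actn3 and Myog the groups overlapped. All of these lay below the filter and were not tested. The part of these markers in the Myom3 value was not tested.

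Obsl1 (chr1:75479310-75506452, minus strand), which anchors myomesin and titin at the M-band, was at 5.72, 5.71 and 7.33 FPKM in the WT libraries against 3.86, 6.50 and 7.82 FPKM in Cfp1-cKO. The Cfp1-cKO libraries held both the lowest and the highest value (log2 fold change -0.08, SE 0.23, 95% interval -0.61 to 0.46, adjusted p = 0.816), and the sign turned without WT replicate 3 or Cfp1-cKO replicate 1.

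**Figure D2:**
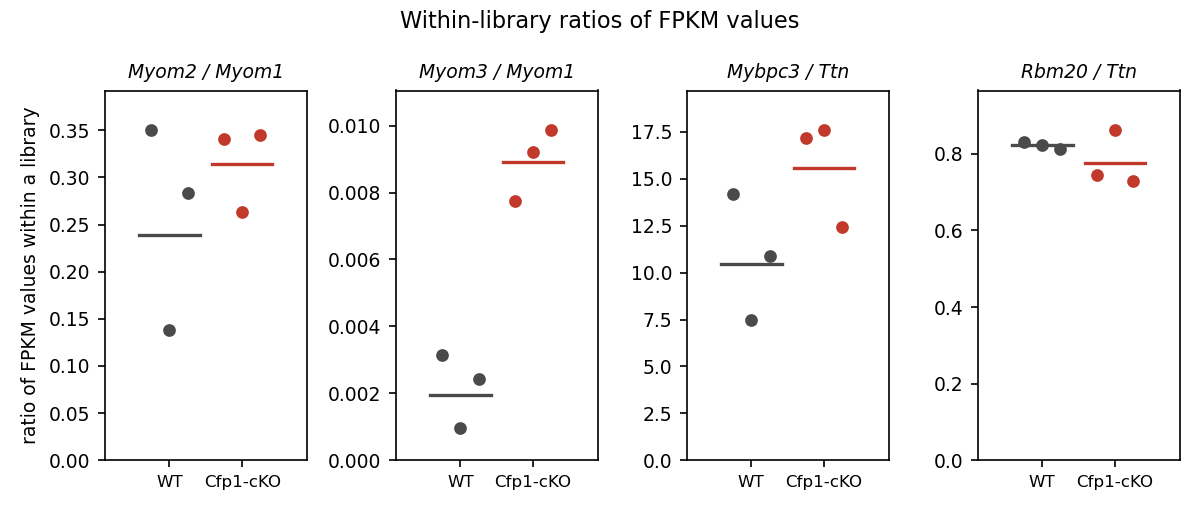
Ratio of FPKM values of 2 genes within each library, each axis starting at 0, with WT in grey, Cfp1-cKO in red, each point 1 library, and bars at the geometric group means (n = 3). Of the 4 ratios shown, only for Myom3 to Myom1 did the groups not overlap, with 0.00775 to 0.00987 in Cfp1-cKO against at most 0.00314 in WT.

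The order of levels per length, from the overall means, was Mybpc3 (349 FPKM), Myom1 (170.2), Myom2 (49.1), Ttn (27.1), Nebl (24.9), Rbm20 (21.5), Obsl1 (6.16) and Myom3 (0.852). In WT libraries, the ranges of Mybpc3 and Myom1 overlapped, as did those of Ttn and Nebl and of Ttn and Rbm20, the range of Myom2 overlapped all of these 3, and Nebl lay wholly above Rbm20. In Cfp1-cKO libraries, Mybpc3 lay wholly above Myom1 and Nebl lay wholly below Ttn, while Nebl and Rbm20 overlapped. No test of the order was made.

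The deposited scaling sets the zero of each change. On it 6 of the 7 tested genes had a log2 fold change below 0, and the same 6 were below 0 after scaling by the median of ratios. After scaling to the cardiomyocyte markers, 6 were above 0 and only Nebl was below. In that fit 5 were called higher, namely Mybpc3 (1.35), Ttn (0.75), Myom2 (0.75), Rbm20 (0.67) and Obsl1 (0.67), but so were 9895 of the 11017 tested genes. Nebl was thus the only member with the same sign below 0 under each of the 3 scalings, and Mybpc3 the only one with the same sign above 0.

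**Figure D3:**
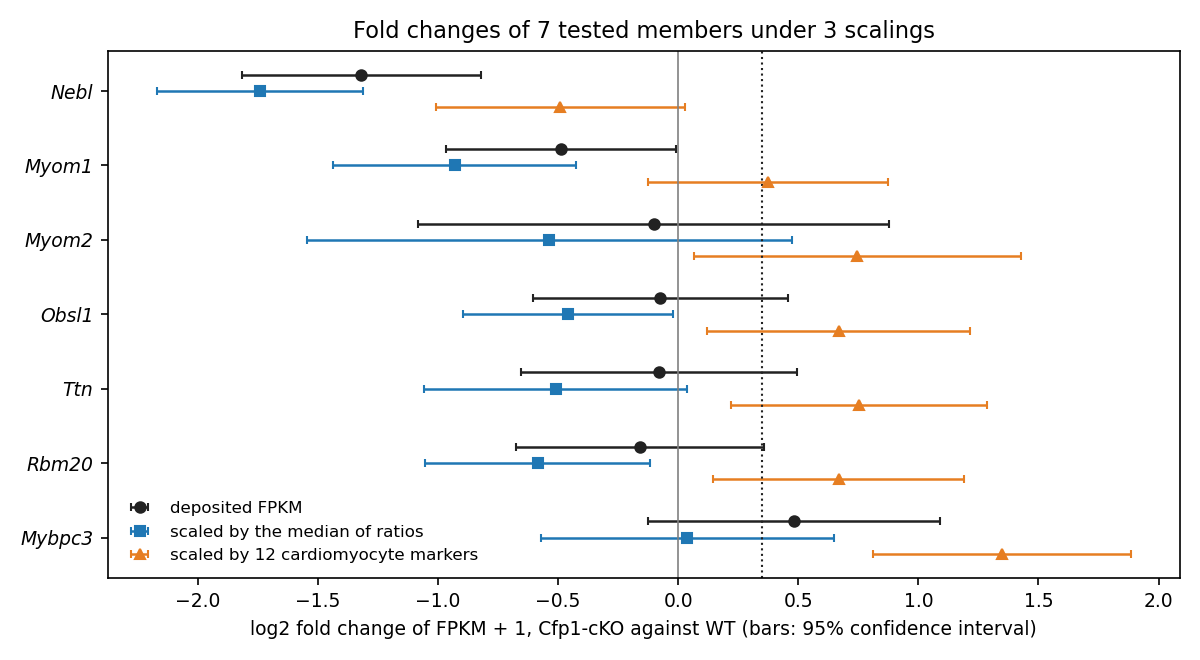
Log2 fold change of FPKM + 1 in Cfp1-cKO against WT for the 7 tested genes, with 95% confidence intervals, under the deposited scaling (black), the median of ratios (blue) and the cardiomyocyte markers (orange); the dotted line is the median of all tested genes on the deposited scale (0.35). The interval of Nebl lay below 0 on the deposited scale (-1.82 to -0.82). The estimate of Mybpc3 was above 0 in all 3, but only 0.04 with the median of ratios (interval -0.57 to 0.65).

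The wider M-band and thick-filament partners included fitted changes larger than that of Nebl. Of 22 listed, 19 were tested, 2 were called higher and 4 lower, with a median log2 fold change of -0.09. Over all tested genes, 21.1% were called higher and 1.68% lower, with a median of 0.35. Myh7, which encodes beta-myosin heavy chain, abundant in fetal ventricles, rose from 11.7 ± 3.07 to 204.2 ± 71.3 FPKM (log2 fold change 3.99, adjusted p = 1.81e-04). Mybpc2, the fast skeletal relative of Mybpc3, rose from 0.374 ± 0.406 to 4.02 ± 1.10 FPKM (log2 fold change 1.89, adjusted p = 0.00375). Mybphl, a myosin-binding protein H-like gene of the atria, fell from 27.7 ± 21.7 to 5.84 ± 3.01 FPKM (log2 fold change -1.89, adjusted p = 0.0462), and it is also 1 of the 8 atrial markers. Of the other 7, Myl7 and Sln were called lower (log2 fold changes -3.98 and -2.80), Nppa was called higher (1.01, adjusted p = 0.0408), and Myl4, Bmp10, Stard10 and Dkk3 did not pass. Ckm, the muscle creatine kinase bound at the M-band, fell from 345 ± 68.9 to 168 ± 23.9 FPKM (log2 fold change -1.02, adjusted p = 0.0133). The remaining calls were Fhl2 and Trim54, both lower. The count of 4 lower was not stable: it was 0 without WT replicate 1, 1 without Cfp1-cKO replicate 2, and 2 without WT replicate 3, Cfp1-cKO replicate 1 or Cfp1-cKO replicate 3.

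Of 12 listed titin partners at the Z-disc and in the I-band, 10 were tested, 5 were called higher and 1 lower, with a median log2 fold change of 0.49. Over all tested genes, 21.1% were called higher and 1.68% lower, with a median of 0.35. Of the 10 titin partners tested, 2 had a change below 0 on the deposited scale, where 1803 of the 11017 tested genes did, and 5 had one below 0 with the median of ratios. Ankrd1, a stretch-responsive ankyrin repeat protein that binds the titin spring, was at 319, 112 and 221 FPKM in the WT libraries against 4134, 2152 and 1012 FPKM in Cfp1-cKO (log2 fold change 3.38, adjusted p = 0.0065). Myot, the Z-disc protein myotilin, rose from 1.88 ± 1.27 to 11.97 ± 6.94 FPKM (log2 fold change 2.16, adjusted p = 0.0148). Myoz2, the cardiac calsarcin that inhibits calcineurin, fell from 362 ± 54.6 to 136 ± 21.7 FPKM (log2 fold change -1.41, adjusted p = 0.0034), while Myoz1, its fast skeletal relative, rose from 0.511 ± 0.203 to 1.97 ± 0.639 FPKM (log2 fold change 0.96, adjusted p = 0.0178). Tcap, telethonin, which joins the ends of titin at the Z-disc, was at 395 to 669 FPKM in WT and 231 to 410 FPKM in Cfp1-cKO and did not pass (adjusted p = 0.0709). With the median of ratios only Ankrd1 stayed called higher. The number called higher was 3 without WT replicate 1 or Cfp1-cKO replicate 2, and 2 were called lower without WT replicate 3.

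**Figure D4:**
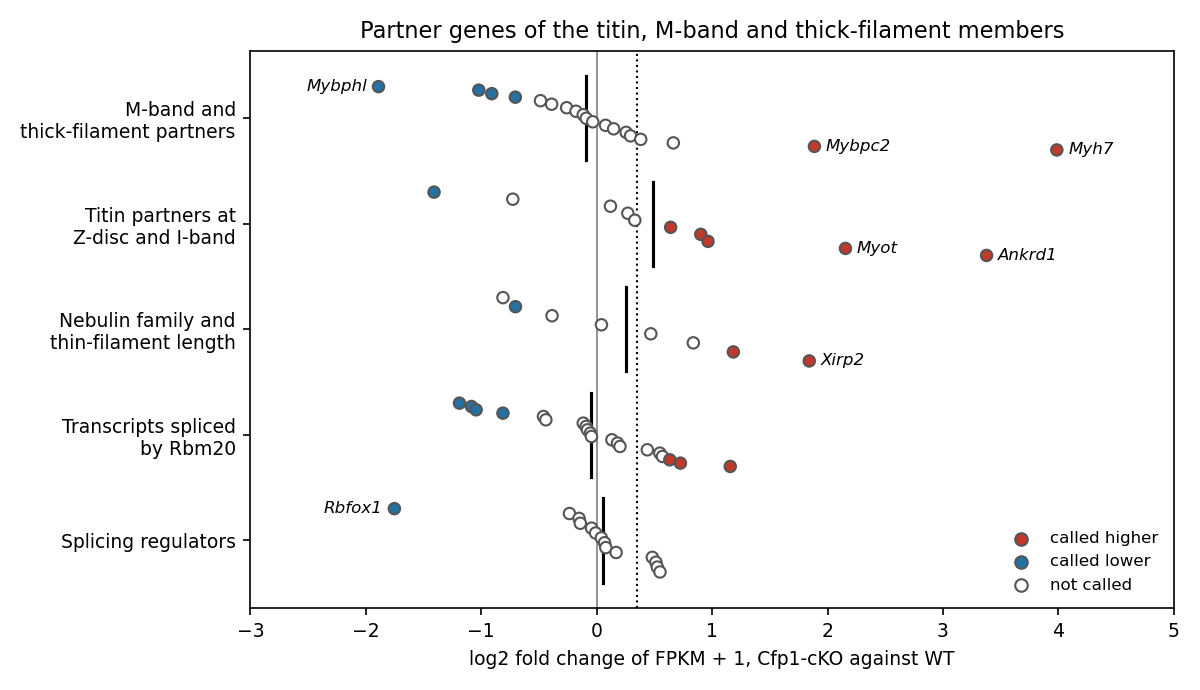
Log2 fold change of FPKM + 1 in Cfp1-cKO against WT for each tested gene of the 5 partner lists, with filled points called higher (red) or lower (blue), a black bar at each list's median and a dotted line at the median of all tested genes (0.35). Myh7 (3.99) and Ankrd1 (3.38) lie furthest to the right, and Mybphl (-1.89) and Rbfox1 (-1.75) furthest to the left.

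As a description over the 6 libraries, the 3 tested genes whose log2(FPKM + 1) ran closest to Ttn were Bcat2, 2310061I04Rik and Kif16b, with Pearson's r of 0.99, 0.98 and 0.98. For Rbm20 they were Sox6, Gpd1 and Ubr2, with r of 0.997, 0.99 and 0.98. For Myom2 they were Galt, Prmt7 and Gm8730, with r of 0.98, 0.97 and 0.96. Between 0.418% and 0.526% of tested genes had an r above 0.9 with any one of these 3. The points are the same 6 libraries in 2 groups, on 1 scaling, and no test was made.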

How the data were processed

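Total RNA of mouse heart was sequenced in 6 libraries after Illumina TruSeq library preparation. The submitters' processing notes name GRCm38, CASAVA, Bowtie2 2.2.3, HISAT2 2.1.0, TopHat2, HTSeq 0.6.0 and DESeq2, whereas the methods text gives a chicken genome address and the extraction label speaks of retinas. The deposited values are FPKM per gene, computed by the authors, and both deposited tables held equal values for 26881 genes. The strand setting of the counting is not given in the sources used here. FPKM hide depth, so fragments were recovered from the steps of low values with GENCODE M21 exon lengths: 89.1% of genes gave whole fragments in all libraries within a tolerance of 0.02 (for highly expressed genes, a small share of the count). Totals of 16672652 to 22700811 fragments are the depth behind the values.

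Genes whose 6 libraries averaged 1 FPKM or more were tested with limma 3.58.1 (R 4.3.3, variance trend) on log2(FPKM + 1), Benjamini-Hochberg over all 11017 tested genes. This replaces the count model of the study, since FPKM are not counts. Ratios within a library were compared on the log2 scale with exact two-sided permutation tests (scipy 1.17.1), adjusted over 5 ratios, 1 of which is not reported here. The limma script was tested on simulated data. The alternatives were another pseudocount (0.1), no filter, 3 other scalings, no variance trend, no fold threshold, the replicate number as a block, sex as a covariate, voom on recovered fragments, and each library left out. The 8 genes and all lists were chosen with earlier results of these data known. All 8 genes were named with every library, and of each partner list up to 4 called genes with the largest change, plus Neb; single genes beyond this rule are named where a count or a result turned on them. Promoters are from RefSeq (GRCm38.p6), which held 6 of the 8 genes, with 9 starts.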

Additional observations from a re-analysis of the deposited data

How the results depend on the processing

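The call of Nebl as lower held in 16 of 17 alternatives (log2 fold changes -1.74 to -0.49), the exception being the scaling to cardiomyocyte markers. The 17 include the main fit called without a fold threshold, where a call cannot be lost. Of the 7 tested members, 1 was called lower and 0 higher in the main test. The number lower was 2 with the median of ratios and 0 with cardiomyocyte markers. The number higher was 5 with cardiomyocyte markers, 1 with sex as a covariate and 1, Myom3, with voom on genes of 10 or more fragments on average, which was added after seeing the data. Over all tested genes, 2325 were called higher and 185 lower. These counts were 1518 and 91 without a filter, 412 and 358 with the median of ratios, and 9895 and 30 with cardiomyocyte markers. They were 1271 and 208 without mitochondrial and haemoglobin genes in the total, and 3006 and 197 with sex as a covariate. The added voom fit called 3758 higher and 193 lower, over genes with 10 or more fragments on average. Leaving out 1 library gave 538 (without Cfp1-cKO replicate 2) to 2588 higher and 50 (without Cfp1-cKO replicate 2) to 201 lower. The cause of these differences was not tested. The log2 difference of the Myom2 to Myom1 ratio ranged from -0.0054 (without WT replicate 2) to 0.67. The other 3 ratios kept their sign in every alternative run.

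Same-numbered libraries of the groups correlated at 0.11, 0.04 and 0.10 in their deviations from the group means. Libraries of unlike number correlated at -0.12 to 0.03, so each library was closest to its own number, though weakly. The numbers were not taken to pair the libraries in the main test, and whether they do is not known. With the number as a block, the SE was smaller for each tested member (Ttn 0.14 against 0.25, Nebl 0.16 against 0.22). With the replicate block, 1597 genes were called higher and 152 lower, and among the members again 1 lower and 0 higher; the paired log2 differences of the ratios equal the unpaired ones (2.201 for Myom3 to Myom1, with a smallest possible p of 0.25). The precision is limited by 3 libraries a group. At 17 to 162 fragments, Myom3 has the least depth of the 8 genes.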

Other observations

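Myom2 was lowest in replicate 2 of both groups, at 21.8 and 31.2 FPKM. One of the 3 genes closest to it, Gm8730, a processed pseudogene (chr8:102864845-102865798, minus strand) on the same chromosome as Myom2 (chr8:15057653-15133541), was nearly absent from the same libraries. It was at 0.111 and 0.377 FPKM there, on 2 and 6 fragments, and at 163, 136, 68.8 and 58.8 FPKM in the other 4. Fragments of a processed pseudogene can be shared with its parent gene, so its level is uncertain.

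Mybpc3, Myom1, Myom2, Myom3 and Nebl had their lowest WT value in replicate 2, the WT library with Xist. For Obsl1, WT replicates 1 and 2 were nearly equal, at 5.72 and 5.71 FPKM. In the fit with sex as a covariate, the log2 difference of libraries with Xist from those without was -0.99 for Myom2 (adjusted p = 0.51), -0.63 for Mybpc3 (adjusted p = 0.505) and -0.47 for Nebl (adjusted p = 0.518), none of which passed; 8 genes passed for sex over the whole table. The Cfp1-cKO libraries with Xist also held some transcript of the Y chromosome, Ddx3y at 0.938 and 0.658 FPKM, where WT replicate 2 held 0 and the libraries without Xist held 17.97 to 22.2 FPKM.

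Calpain 3 (Capn3), a protease that binds titin, was below the filter and at 0.0175, 0.0317 and 0.144 FPKM in the WT libraries against 0.787, 0.657 and 0.696 FPKM in Cfp1-cKO. It was chosen after its values were seen and was not tested. Mybpc1, the slow skeletal myosin-binding protein C, stayed at 0.0195 to 0.172 FPKM in all 6 libraries.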
